A study of Mus musculus with 24 samples.

Results

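The miR-7 family and miR-375 are microRNAs of neurons and hormone-secreting cells, and 4 of their mature forms were measured on the arrays: mmu-miR-7a-5p, mmu-miR-7b-5p, mmu-miR-7a-1-3p and mmu-miR-375-3p (mmu marks the mouse and is left out below). They were chosen by name, as the targets so called in the scanner files, and are 4 of the 696 mouse miRNAs on each array. The study put a diffuser over the right eye of C57BL/6J mice, which blurs vision and makes the eye grow too long (form-deprivation myopia), and kept the left eye as control. The mice were 34 days old, after 10 days of deprivation from postnatal day 24, and the labels give no mutation or transgene. RNA was taken from whole eye, retina or sclera, the collagen-rich outer coat of the eye. There were 24 single-colour arrays: retina titled myopia (3), retina titled control (3), whole eye myopia (6), whole eye control (6), sclera titled myopia (3) and sclera titled control (3).

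For whole eye, the titles, source names and phenotype fields name the same arm, but a sentence of the description field names the opposite one, so the direction of the whole-eye arms rests on titles, source names and phenotypes. For retina and sclera they name opposite arms, so the arms of those tissues are given as titled and the direction of any arm difference there is unsettled. By the labels, whole eyes came from 6 mice, retinas from 9 and scleras from 9, out of 15 mice, so some animals gave more than 1 tissue. The 12 whole-eye arrays come from those 6 mice, so the arms share animals there and the arrays are not 12 independent animals, although the tests below treat them as separate samples. The arms of retina and of sclera, and the retina and sclera arrays, may share animals too. Tests between them also treat the arrays as separate samples. Neither the animals behind an array nor any pooling is stated, and the p-values below measure only how far these samples spread, part of which may be technical. Between 274 and 401 miRNAs were called detected per array. Each of 3 slides held arrays of all 6 groups, but each group kept its own positions on the slides, so position and group cannot be told apart.

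A microRNA is cut from a hairpin precursor, and its 5′ or 3′ arm then guides the silencing of messenger RNAs that pair with its seed, bases 2 to 8. miR-7 is known from neurons, pituitary and pancreatic islets, where it restrains growth and secretion programmes. In the mammalian brain it is bound by the circular RNA Cdr1as, which is in turn cut at a site for miR-671-5p. miR-375 is an abundant islet and pituitary miRNA that restrains insulin secretion and is needed for islet cell mass. The mature miR-7a-5p can come from 2 hairpins, Mir7-1 and Mir7-2, whereas miR-7a-1-3p comes from Mir7-1 alone. In the RefSeq gene table Mir7-1 lies inside Hnrnpk, which encodes an RNA-binding protein, on chromosome 13. Mir7-2 lies between Det1 and Gm39039 on chromosome 7, Mir7b between A230051N06Rik and Fem1a on chromosome 17, and Mir375 between Cryba2, a lens crystallin gene, and Cfap65 on chromosome 1.

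The mature sequences, from RefSeq (GRCm38.p6), show which members could be mistaken for each other and which share targets. Of the 4 members, 3 had a mature entry in the RefSeq table. The seed is in capitals.
miR-7a-5p: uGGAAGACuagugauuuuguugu
miR-7b-5p: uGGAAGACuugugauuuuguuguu
miR-7a-1-3p: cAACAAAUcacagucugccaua
miR-7a-5p and miR-7b-5p share the seed GGAAGAC, and the seed of miR-7a-1-3p is another, AACAAAU. Over 23 aligned bases, miR-7a-5p and miR-7b-5p differ by the substitution A10U, counted from the 5′ end of miR-7a-5p, and miR-7b-5p has 1 further base at its 3′ end. The Mir7-1 hairpin (chr13:58392779-58392886, minus strand, GRCm38.p6) carries the pair of strands compared below, shown in capitals, miR-7a-5p first and miR-7a-1-3p after it.
Mir7-1: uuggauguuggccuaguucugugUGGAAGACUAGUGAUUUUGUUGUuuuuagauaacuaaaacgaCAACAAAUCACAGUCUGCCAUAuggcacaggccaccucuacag

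Each member was read by 2 probes of 10 spots each, whose sequences and mm9 positions are those of the scanner files. The 22-base probes of miR-7a-5p and miR-7b-5p differ by T14A, counted from the probe's 5′ end and set in capitals, so signal of either miRNA on the other's probe was not tested and cannot be told apart here.
miR-7a-5p probe: acaacaaaatcacTagtcttcc
miR-7b-5p probe: acaacaaaatcacAagtcttcc
miR-7a-1-3p probe: tatggcagactgtgatttg
miR-375-3p probe: tcacgcgagccgaacg
The miR-7a-5p probe is placed at 2 sites, chr13:58494164-58494185 and chr7:86033182-86033203, 1 for each hairpin. The probes of miR-7b-5p, miR-7a-1-3p and miR-375-3p shown are placed at chr17:56382441-56382462, chr13:58494208-58494226 and chr1:74947277-74947292. Probe brightness differs for reasons other than abundance: on the retina arrays the 22-base miR-7a-5p probe was 6.58 ± 0.43 times as bright as the 21-base probe (SD, n = 6), and the ratio was 6.35 ± 0.36 on the whole-eye arrays (n = 12). Levels of different members are therefore not ranked against each other, and only their differences between groups are read.

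Retina had the strongest signal of all 4 members, whole eye an intermediate signal and sclera little or none. The summed processed signal of miR-7a-5p had a lowest, median and highest value of 1474, 1617 and 2122 intensity units on the 6 retina arrays, 374, 433 and 639 on the 12 whole-eye arrays and 6.67, 22.9 and 36.5 on the 6 sclera arrays. For miR-7b-5p these were 448, 497 and 658 in retina, 110.3, 130.8 and 183.4 in whole eye and 0.837, 5.44 and 9.90 in sclera. For miR-7a-1-3p they were 271, 296 and 397 in retina, 86.7, 95.2 and 132.3 in whole eye and 4.83, 11.98 and 17.5 in sclera. No tissue's range reached into another's for any of these 3 members, and the share of all miRNAs that separate in this way was not counted. The signal of miR-375-3p was 386, 411 and 485 in retina and 148.2, 172.8 and 262.1 in whole eye, and after background subtraction it was negative on every sclera array (lowest -5.002, highest -1.83).

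All 4 members were called detected by the scanner software on all 6 retina and all 12 whole-eye arrays, a pattern that 276 of 696 miRNAs (39.7%) had. In sclera, miR-7a-5p was detected on 5 of 6 arrays, the exception being titled control replicate 3. miR-7a-1-3p was detected on 3 of 6 sclera arrays, titled myopia replicate 1 and titled control replicates 1 and 2. miR-7b-5p and miR-375-3p were detected on 0 of 6. Of the 696 miRNAs, 13 were detected on every retina and whole-eye array and on no sclera array, and these 2 are among them. A call set at 3 times the spread of negative-control spots gave 6 of 6 for miR-7a-5p and 4 of 6 for miR-7a-1-3p in sclera, and the same 0 of 6 for miR-7b-5p and miR-375-3p.

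For comparisons between tissues, signals were divided by the array's own 75th percentile, taken over the 237 miRNAs called on every one of the 24 arrays, and put on the log2 scale, so that a level of 0 means a signal at that percentile. On this scale miR-7a-5p had lowest, median and highest levels of -0.17, -0.062 and -0.013 in retina, -1.71, -1.52 and -1.38 in whole eye and -5.99, -5.37 and -4.91 in sclera. miR-7b-5p lay at -1.86, -1.77 and -1.70 in retina and at -3.39, -3.30 and -3.0 in whole eye. miR-7a-1-3p lay at -2.56, -2.54 and -2.47 in retina, -3.84, -3.71 and -3.61 in whole eye and -6.51, -6.28 and -6.06 in sclera. miR-375-3p lay at -2.20, -2.07 and -1.99 in retina and at -3.04, -2.89 and -2.62 in whole eye. In sclera, all 6 arrays of miR-375-3p and 2 of 6 of miR-7b-5p were at the floor of the scale, -7.70. The order of levels was thus retina, whole eye, sclera for every member, and no neighbouring pair of tissues overlapped. How many of all miRNAs separate in this way was not counted. Most of those tested differed between tissues, as 70.9% to 89.2% passed in the comparisons below, so the separation is not read as particular to the members. Within each tissue the arms overlapped for every member, so the 6 groups fall into 3 separate levels and not 6.

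**Figure D1:**
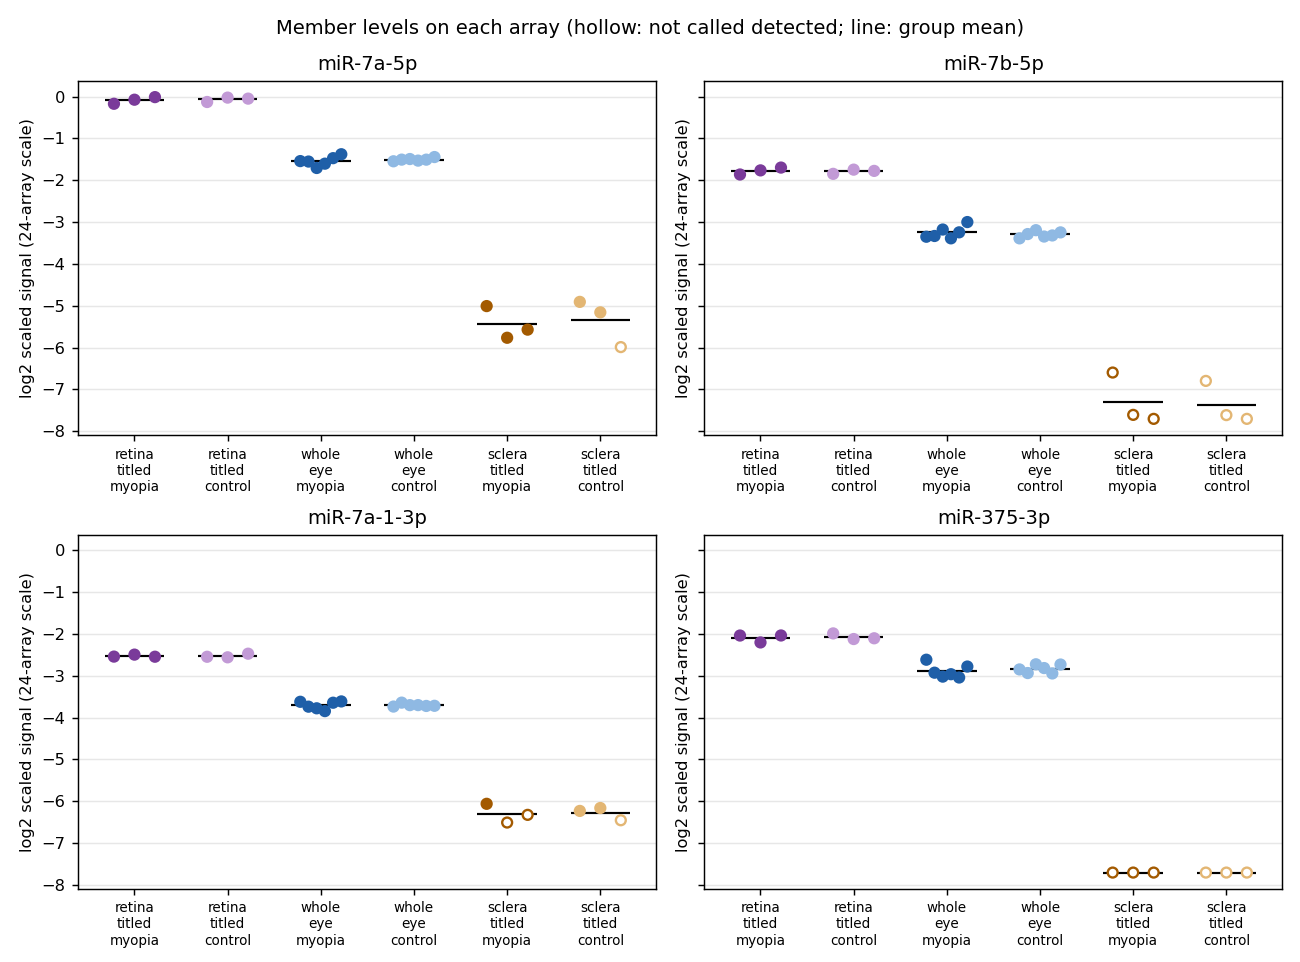
Log2 scaled signal of the 4 members on each of the 24 arrays (y axis, scale of all 24 arrays; x axis, the 6 groups). Each point is an array, filled where the miRNA was called detected, and each line is a group mean. The 3 tissues occupy separate ranges in each panel, the arms of a tissue do not separate, and the sclera points of miR-7b-5p and miR-375-3p are all hollow.

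All 4 members were higher in retina than in whole eye in the limma fit of all 24 arrays. miR-7a-5p was higher by 1.45 on the log2 scale (SE 0.12, 2.73-fold, 95% interval 2.30 to 3.23, limma adjusted p = 4.72e-10) and miR-7b-5p by 1.49 (SE 0.14, 2.81-fold, 2.31 to 3.42, limma adjusted p = 2.65e-09). The other strand, miR-7a-1-3p, was higher by 1.18 (SE 0.059, 2.26-fold, 2.08 to 2.46, limma adjusted p = 2.37e-13). miR-375-3p was higher by 0.78 (SE 0.059, 1.72-fold, 1.58 to 1.87, limma adjusted p = 1.36e-10). Its interval on the log2 scale was 0.66 to 0.90. With only the retina and whole-eye arrays in the fit it was 0.55 (limma adjusted p = 1.96e-06), below that interval, and the median of all tested was 0.52. In that fit miR-7a-5p, miR-7b-5p and miR-7a-1-3p were at 1.22, 1.26 and 0.95. A higher level in retina was no rarity: of the 426 miRNAs tested 88% passed the threshold (adjusted p under 0.05), 65% higher and 23% lower in retina, and the median difference of all tested was 0.70. The share of calls that were higher in retina was 73.9%, against 56.9% when arrays were scaled over all miRNAs and 61.9% with quantile normalisation. Read against the median, miR-375-3p lay 0.079 above it and was 197th from the top of 426. miR-7a-1-3p was 127th, miR-7a-5p 77th and miR-7b-5p 73rd. A whole eye contains its retina, so this comparison sets retinal RNA against a mixture that holds it, and fewer cells of a type and less RNA per cell cannot be told apart in such bulk samples.

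The retina difference was much the same within each slide and for each probe. Within the 3 slides the retina minus whole-eye difference was 1.41 to 1.47 for miR-7a-5p, 1.42 to 1.54 for miR-7b-5p, 1.16 to 1.19 for miR-7a-1-3p and 0.74 to 0.80 for miR-375-3p. The 22-base and 21-base probes of miR-7a-5p gave 1.45 and 1.40, and the 23-base and 22-base probes of miR-7b-5p gave 1.5 and 1.47. The pairs for miR-7a-1-3p gave 1.19 and 1.14, and those for miR-375-3p gave 0.78 and 0.77. Quantile normalisation and normexp ended calls here. With quantile normalisation miR-375-3p differed by 0.20 (limma adjusted p = 0.065), while the median of all tested was 0.31. With normexp background correction, which pulls dim signals together, miR-375-3p differed by 0.48 (adjusted p = 0.20) and miR-7a-1-3p by 0.60 (adjusted p = 0.081). miR-7a-5p and miR-7b-5p stayed past the threshold in both. With scaling over all miRNAs the differences were 0.90 for miR-7a-5p, 0.94 for miR-7b-5p, 0.63 for miR-7a-1-3p and 0.23 for miR-375-3p, all past the threshold, beside a median of 0.16 over all tested.

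Against sclera, all 4 members were again higher in retina. miR-7a-5p was higher in retina by 5.32 on the log2 scale (SE 0.14, 40.0-fold, 95% interval 32.8 to 48.8, limma adjusted p = 7.82e-19), 12th from the top of 426. miR-7a-1-3p was higher by 3.76 (SE 0.068, 13.6-fold, 12.3 to 15.0, limma adjusted p = 2.52e-21), 45th from the top. These sizes depended on the processing: miR-7a-5p was at 1.98 with normexp, 4.54 with scaling over all miRNAs and 4.35 in the series table, past the threshold in each, and miR-7a-1-3p at 2.98 with that scaling and 2.36 in the series table. For the members detected on no sclera array the fold is a bound, the mean retina level against the higher of each sclera array's lowest detected signal and the probe's own. On that basis, and on this scale only, miR-7b-5p was at least 36.3-fold higher in retina and miR-375-3p at least 40.0-fold higher. The limma adjusted p was 4.03e-18 and 3.19e-24 in the fit that held sclera at the floor. The floor set 2 of 6 sclera values of miR-7b-5p and all 6 of miR-375-3p, so these p-values do not measure the bounds. Both members entered the test only through retina and whole eye. Other settings gave fitted values below these bounds, which are 5.18 and 5.32 on the log2 scale: for miR-7b-5p 4.72 with scaling over all miRNAs and 3.36 in the series table, and for miR-375-3p 4.85 and 3.40. The background is again high, since 89.2% of the miRNAs tested passed, 58.7% higher and 30.5% lower in retina than in sclera. The median difference of all tested was 0.81, and miR-7a-1-3p lay 2.95 and miR-7a-5p 4.51 above it on the log2 scale. With normexp, miR-7b-5p (0.65, limma adjusted p = 0.061), miR-375-3p (0.50, adjusted p = 0.16) and miR-7a-1-3p (0.078, adjusted p = 0.82) lost the call against sclera. The median of all tested fell to -0.85 there, and these members lay 1.51, 1.36 and 0.93 above it.

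Whole eye also exceeded sclera for all 4 members, where 70.9% of all tested passed, 40.1% higher and 30.8% lower in whole eye. miR-7a-5p was higher by 3.88 (SE 0.12, 14.7-fold, limma adjusted p = 2.69e-17) and miR-7a-1-3p by 2.58 (SE 0.059, 6.00-fold, limma adjusted p = 3.05e-19). miR-7b-5p was at least 12.9-fold higher and miR-375-3p at least 23.3-fold higher, again as bounds of this scale. The limma adjusted p of their fits with floored sclera values, 1.37e-16 and 3.56e-24, does not measure these bounds either. In the series table the fitted values were 2.94 for miR-7a-5p, 1.33 for miR-7a-1-3p, 1.98 for miR-7b-5p and 2.69 for miR-375-3p. With normexp miR-7a-5p was at 0.75 (limma adjusted p = 0.00673). There miR-7a-1-3p (-0.52) and miR-7b-5p (-0.27) turned direction without passing the threshold, and miR-375-3p was at 0.026, while the median of all tested was -1.01.

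**Figure D2:**
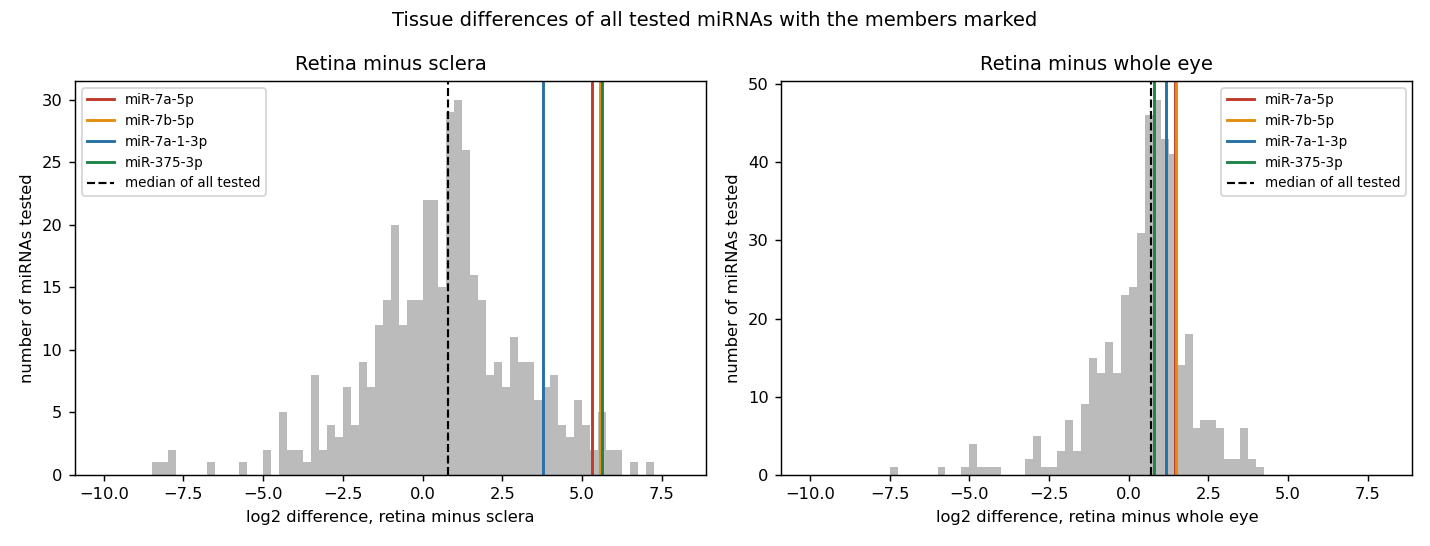
Number of miRNAs (y axis) by log2 difference (x axis) for retina minus sclera and retina minus whole eye, over the 426 miRNAs tested. Coloured lines mark the 4 members and the dashed line the median of all tested. Against sclera the members stand far to the right of the median, while against whole eye miR-375-3p stands beside the median and the miR-7 members to its right. The miR-7b-5p and miR-375-3p values against sclera are fitted values at the floor, and their bounds are in the text.

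The strands of the Mir7-1 hairpin differed between tissues by unequal amounts. The difference miR-7a-5p minus miR-7a-1-3p had lowest, median and highest values of 2.37, 2.42 and 2.53 on the log2 scale in retina and of 2.07, 2.19 and 2.27 in whole eye, so that every retina array lay above every whole-eye array. How many strand pairs of other hairpins separate in this way was not counted, so the separation is not read as particular to Mir7-1. The means were 2.45 ± 0.068 in retina (SD, n = 6) and 2.18 ± 0.061 in whole eye (SD, n = 12), a difference of 0.27 (two-sided exact permutation test, p = 0.000108, the smallest it can give, adjusted over 12 such tests to 0.000431). Within the 3 slides this difference was 0.22 to 0.30, positive in each. Its size depended on background correction, from 0.27 to 0.63 over the 3 alternatives run, the highest with normexp. In sclera the strand difference was lower, 0.89 ± 0.30 (SD, n = 6), which is 1.56 below retina (exact permutation p = 0.00216, adjusted 0.00649) and 1.29 below whole eye (exact permutation p = 0.000108, adjusted 0.000431). Both strands were detected on only 3 of the 6 sclera arrays, where the difference was 1.003 to 1.32. The sclera signals of miR-7a-1-3p lie near the detection limit, and what part of this difference that accounts for was not tested. miR-7a-5p can also come from Mir7-2, whose other strand, miR-7a-2-3p, was not among the named miRNAs of the array. A change in strand use and a change in the share of the hairpins therefore cannot be told apart.

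The relation of miR-375-3p to miR-7a-5p differed between retina and whole eye, and that of miR-7b-5p to miR-7a-5p did not pass the test. The difference miR-7b-5p minus miR-7a-5p was -1.71 ± 0.019 in retina (SD, n = 6) and -1.75 ± 0.11 in whole eye (SD, n = 12), a difference of 0.044 (two-sided exact permutation p = 0.37, adjusted 0.55). With normexp that difference was -0.30 (exact permutation test, adjusted p = 0.000646), so its direction is not settled. The difference miR-375-3p minus miR-7a-5p had lowest, median and highest values of -2.13, -2.04 and -1.86 in retina and of -1.57, -1.34 and -1.07 in whole eye, with no overlap. The means differed by -0.67 (exact permutation p = 0.000108, adjusted 0.000431), and the range over the 3 alternatives was -0.75 to -0.67. Within the 3 slides it was -0.73 to -0.61. miR-375-3p was therefore less concentrated in retina than miR-7a-5p was, relative to whole eye, by a factor that exceeded the spread between arrays. How many other pairs of miRNAs differ in this way was not counted. Since 88% of the 426 miRNAs tested differed between retina and whole eye, the difference is not read as particular to this pair. Differences with miR-7b-5p or miR-375-3p were not tested in sclera, where neither was detected.

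**Figure D3:**
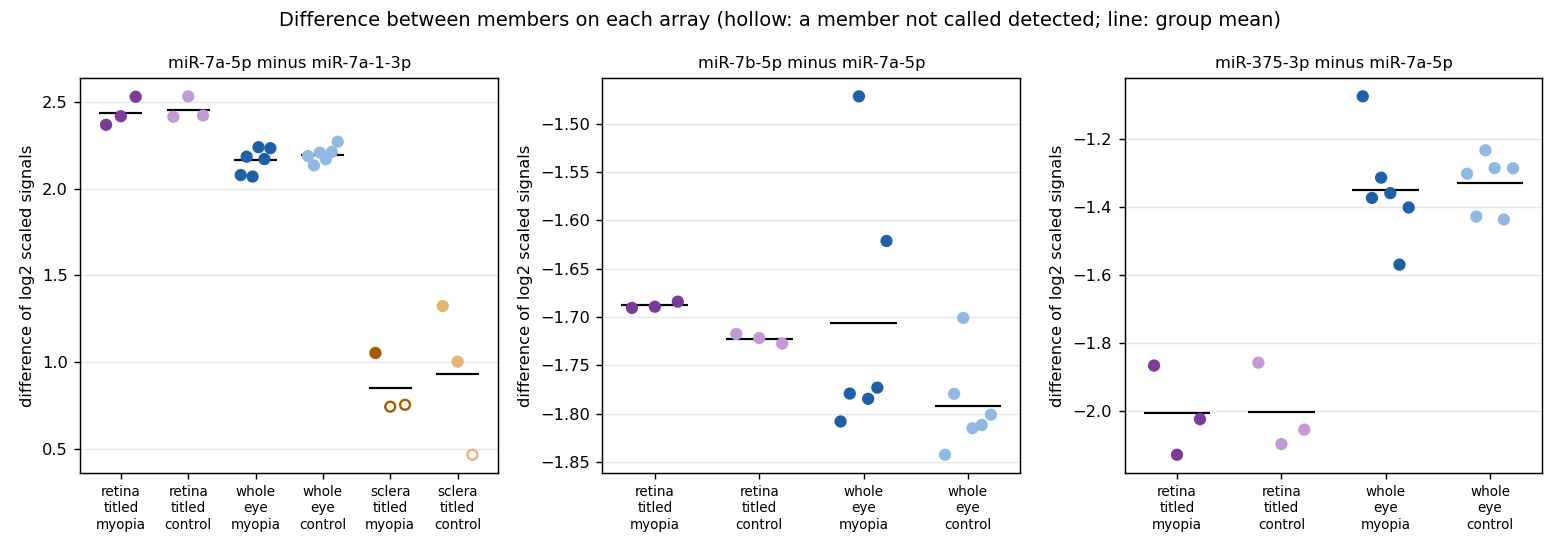
Difference between log2 scaled signals of pairs of members on each array (y axis) by group (x axis), with group means as lines and hollow points where a member of the pair was not called detected. The strand difference is highest in retina and lowest in sclera, miR-7b-5p minus miR-7a-5p overlaps between retina and whole eye, and miR-375-3p minus miR-7a-5p is lower in retina than in whole eye. Offsets between different probes have no meaning by themselves, and the panels have different y ranges.

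The study's own question was which miRNAs differ between myopic and control eyes, and none of the 4 members passed that test in whole eye. There, 35 of 341 miRNAs (10.3%) passed the threshold, all higher in myopia. With quantile normalisation 94 passed, 34% of them higher. On the whole-eye scale, built in the same way from the 288 miRNAs detected on all 12 of its arrays, miR-7a-5p had lowest, median and highest levels of -1.07, -0.91 and -0.76 in myopia and of -1.01, -0.95 and -0.85 in control. The difference was 0.049 (SE 0.058, 95% interval of the fold 0.948 to 1.13, limma adjusted p = 0.66). miR-7b-5p lay at -2.85, -2.62 and -2.38 in myopia and at -2.83, -2.74 and -2.55 in control. Its difference was 0.13 (SE 0.084, fold interval 0.967 to 1.25, limma adjusted p = 0.36), the furthest from 0 of the 4. miR-7a-1-3p lay at -3.25, -3.02 and -2.99 in myopia and at -3.23, -3.13 and -3.06 in control, a difference of 0.083 (SE 0.058, limma adjusted p = 0.41). miR-375-3p lay at -2.47, -2.21 and -1.99 in myopia and at -2.45, -2.27 and -2.08 in control, a difference of 0.029 (SE 0.090, limma adjusted p = 0.88). The groups overlapped for every member. The upper ends of the 4 fold intervals were 1.25 at most. Relative to the median of all tested, 0.084, the members lay between -0.055 and 0.050, and the sign of their difference turned with quantile normalisation and with scaling over all miRNAs, both of which lowered the median itself to -0.13.

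No member passed between the retina arms either, where 0% of the 396 miRNAs tested passed the threshold by limma and 20 were at an unadjusted p under 0.05. On the retina scale miR-7a-5p was at 0.49, 0.57 and 0.71 in titled myopia and at 0.48, 0.87 and 0.63 in titled control. miR-7b-5p was at -1.20, -1.12 and -0.98 in titled myopia and at -1.23, -0.85 and -1.09 in titled control. miR-7a-1-3p was at -1.88, -1.85 and -1.83 in titled myopia and at -1.93, -1.67 and -1.79 in titled control. The arms overlapped in each case. miR-375-3p was at -1.38, -1.56 and -1.32 in titled myopia and at -1.37, -1.23 and -1.42 in titled control. The differences were -0.073 (SE 0.14), -0.039 (SE 0.14), -0.056 (SE 0.11) and -0.076 (SE 0.12) for miR-7a-5p, miR-7b-5p, miR-7a-1-3p and miR-375-3p, with limma adjusted p of 0.83 to 0.87, and they have the opposite sign if the phenotype field is right. The widest fold interval, that of miR-7b-5p, was 0.762 to 1.24. Without titled control replicate 1, 55 miRNAs passed in retina, and no member was among them.

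In sclera only miR-7a-5p and miR-7a-1-3p were detected often enough for a test, and 0% of 311 miRNAs passed it, with 7 at an unadjusted p under 0.05 in limma. On the sclera scale miR-7a-5p was at -4.59, -5.24 and -5.17 in titled myopia and at -4.57, -4.77 and -5.86 in titled control, the last being the array where it was not detected. The difference was 0.069 (SE 0.38, fold interval 0.553 to 1.99, limma adjusted p = 0.999), and -0.39 without titled control replicate 3. miR-7a-1-3p was at -5.64, -5.98 and -5.93 in titled myopia and at -5.89, -5.78 and -6.32 in titled control, a difference of 0.15 (SE 0.20, fold interval 0.798 to 1.54, limma adjusted p = 0.999). The arms overlapped and these intervals are wide.

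Whether the arm difference itself depended on the tissue was tested over the 24 arrays together. For the retina arm minus the whole-eye arm, the 4 members lay between -0.032 and 0.036 (limma adjusted p = 1 for each), where 1.17% of the 426 miRNAs passed. For the sclera arm minus the whole-eye arm, miR-7a-5p was at -0.059 (SE 0.24) and miR-7a-1-3p at -0.013 (SE 0.12), where 2.11% passed, and for the retina arm minus the sclera arm they were at 0.078 (SE 0.27) and 0.015 (SE 0.14), where 1.64% passed. None of these passed the threshold. They take the retina and sclera arms as titled. By the phenotype field the values, not only the signs, change where the whole-eye arm is subtracted. Read that way, 81 of the 426 miRNAs passed for the retina arm minus the whole-eye arm, and no member did. The strand difference did not pass between the arms of any tissue. It was 2.16 ± 0.074 in whole-eye myopia and 2.20 ± 0.046 in whole-eye control (SD, n = 6 each, exact permutation p = 0.35). In retina the titled myopia arrays had 2.44 ± 0.083 and the titled control arrays 2.46 ± 0.066 (SD, n = 3 each, exact permutation p = 0.70), a design whose smallest possible p is 0.10. In sclera the titled myopia arrays had 0.85 ± 0.18 and the titled control arrays 0.93 ± 0.43 (SD, n = 3 each, exact permutation p = 1). The difference miR-7b-5p minus miR-7a-5p was -1.69, -1.69 and -1.68 on the retina titled myopia arrays and -1.72, -1.72 and -1.73 on the titled control arrays. These did not overlap, at a difference in means of 0.034 (exact permutation p = 0.10, the smallest possible, adjusted 0.24), and with normexp it was -0.089.

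**Figure D4:**
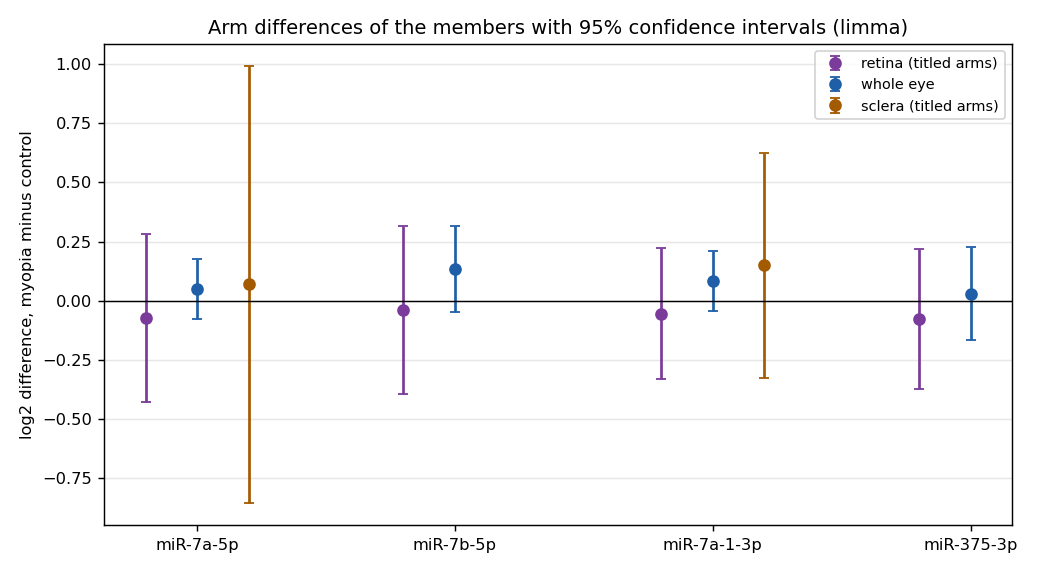
Log2 difference of each member (y axis), myopia minus control, with 95% confidence intervals from limma, for retina and sclera by titled arm and for whole eye. Every interval holds 0, the whole-eye intervals are the narrowest, and the sclera intervals, given for miR-7a-5p and miR-7a-1-3p, are the widest.

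Of the other miRNAs of the miR-7 and Cdr1as circuit, 1 gave levels. miR-671-5p, which directs the cleavage of Cdr1as, was detected on all 24 arrays but lower in retina than in whole eye by -0.43 (SE 0.11, limma adjusted p = 0.0013) and lower in retina than in sclera by -1.08 (SE 0.13, limma adjusted p = 1.003e-07). On this scale its tissue order was the reverse of that of miR-7a-5p. The unscaled signal hardly differed, with medians of 49.9, 51.6 and 54.2 intensity units in retina, whole eye and sclera and overlapping ranges. Of all tested, 23% were lower in retina than in whole eye and 30.5% lower in retina than in sclera. Its whole-eye difference between myopia and control was 0.31 (SE 0.16, limma adjusted p = 0.25). miR-671-3p was called detected on 0 of 24 arrays, and miR-7a-2-3p and miR-7b-3p were not among the named miRNAs of the array.

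The members' company among neuronal and endocrine miRNAs was read from lists. Of 9 neuronal miRNAs 8 were on the array, and all 8 were higher in retina than in whole eye (median 1.35, beside 0.70 over all tested, of which 65% were higher) and all 8 higher than in sclera (median 4.95, beside 0.81, with 58.7% higher). Against whole eye the range ran from miR-153-3p at 1.78 and miR-138-5p at 1.52 to miR-128-3p at 1.16 and miR-124-3p, which marks neurons at large, at 1.03, so that miR-7a-5p and miR-7b-5p lay inside it and miR-375-3p below it. The photoreceptor and sensory cluster was also higher in all 3 members, miR-96-5p at 1.23, miR-183-5p at 1.04 and miR-182-5p at 0.96 against whole eye. The 23 endocrine and secretory miRNAs, many of them known from pancreatic islets, split: 13 of 22 tested were higher in retina than in whole eye and 8 lower, with a median of 0.82, beside 65% higher and 23% lower over all tested. Highest were miR-216a-5p at 2.27, known from the pancreas, and miR-153-3p, and lowest were the epithelial miR-200a-3p at -4.80 and miR-200b-3p at -5.87. Against sclera 14 were higher and 8 lower, with a median of 1.12, beside 58.7% higher and 30.5% lower over all tested. None of the 21 tested passed between whole-eye arms.

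miR-7a-5p is the only member detected on at least 2 of 3 arrays in each of the 6 groups, so likeness of pattern was computed for it alone, as the root mean square difference of centred group means over the 6 groups among 263 other miRNAs detected as often. The nearest were miR-598-3p (0.16 on the log2 scale), miR-183-3p (0.17) and miR-9-5p (0.19), where the median of all 263 was 2.16. miR-598-3p was higher in retina by 5.03 against sclera and by 1.49 against whole eye. These values are a description over 6 groups that differ mainly by tissue.

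The low miR-7a-5p signal in sclera was read beside that of neuronal miRNAs on the same arrays. On the scale of all 24 arrays, not logged, the 8 neuronal miRNAs summed to 102 to 108 on the retina arrays, 46.8 to 53.3 on the whole-eye arrays and 1.55 to 7.06 on the sclera arrays. In sclera, 5 of these 8 miRNAs were detected on every array and 1 on none. The 3 photoreceptor and sensory miRNAs summed to 99.7 to 132.1 in retina and to 1.61 to 9.56 in sclera, and all 3 were detected on every sclera array. Sclera titled control replicate 3 had the lowest miR-7a-5p scaled signal (0.0157), the lowest neuronal sum (1.55) and the lowest photoreceptor sum (1.61). Titled myopia replicate 2 came next on each (0.0184, 2.68 and 3.45). The same arrays had the fewest detected miRNAs of the 24, 274 and 290, and what part of the low values goes with that was not tested. Titled control replicates 1 and 2 had the highest sums (6.70 and 7.06 neuronal) and miR-7a-5p signals of 0.0333 and 0.0280. The order did not hold throughout: titled myopia replicate 1 had a higher miR-7a-5p signal (0.0311) than titled control replicate 2 at a lower neuronal sum (5.38), and titled myopia replicate 3 had 0.0210 at 5.53. The part of retinal RNA in the sclera values was not tested. Fibroblast and mesenchymal miRNAs, which mark the labelled tissue, summed to 1.06 to 1.42 in retina and to 29.3 to 35.3 in sclera, and all 9 on the array were detected on every sclera array.

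**Figure D5:**
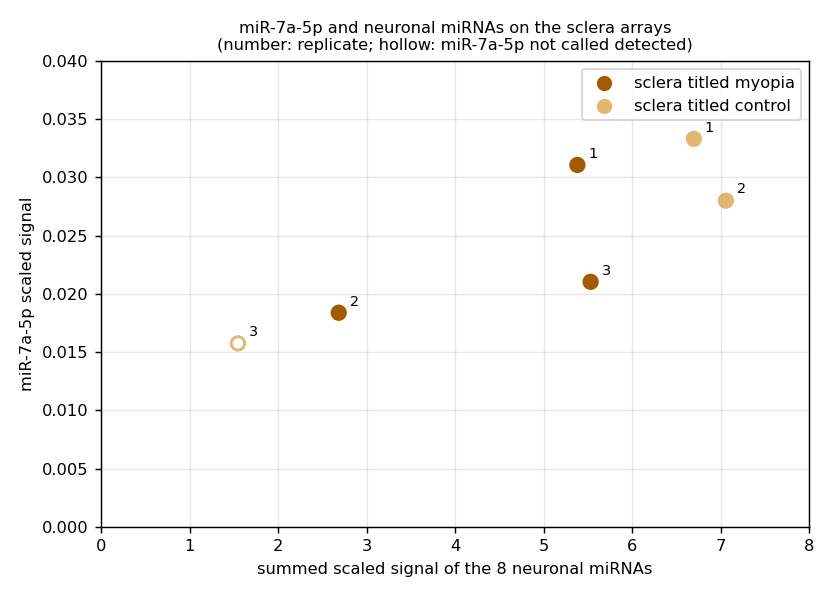
Scaled signal of miR-7a-5p (y axis, not logged) against the summed scaled signal of 8 neuronal miRNAs (x axis) on the 6 sclera arrays, labelled by replicate. The hollow point, titled control replicate 3, is lowest on both axes at 0.0157 and 1.55.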

How the data were processed

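Total RNA was labelled with Cy3 and hybridised to Agilent mouse miRNA arrays, per the labels. The deposited scanner files hold spot intensity, background-subtracted by Agilent Feature Extraction, per the file headers (version 11, per the submitters' processing notes), with a detection call. The authors' deposited series table of log2 values served as an alternative. Flagged and control spots were left out, processed signals were averaged per probe and summed per miRNA, and arrays were scaled to their 75th percentile over miRNAs called on every array in that fit (329 in retina, 288 in whole eye, 266 in sclera, 237 for the 24 together). A floor was set at the lowest detected signal of a median array before taking log2, with no pseudocount. A miRNA was tested when detected on at least 2 of 3 arrays of a group.

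limma 3.58.1 in R 4.3.3 (two-sided, Benjamini-Hochberg, threshold 0.05) fitted the arms within each tissue, and tissues and interactions over the 6 groups. Member differences were compared by exact permutation (scipy 1.17.1), adjusted over 12 tests. The procedures were tested on simulated data. Alternatives were normexp (offset 50), total signals, other scalings, the series table, no filter, slide and replicate blocks, turned arms and leaving out arrays. Same-numbered samples did not deviate together in every pair (correlations -0.37 to 0.64), so numbers were not taken as pairs. Arrays of a group correlated at 0.930 to 0.998, and 0 pairs were identical.

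The members, the 9 miRNA lists and the tests were chosen with earlier results of these data known. Listed miRNAs named are the 2 highest and the 2 lowest in a comparison. Some miRNAs are in more than 1 list. The number of arrays limits the precision.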

Additional observations from a re-analysis of the deposited data

Results flagged for a closer look

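Of 14 checks for a value far from the rest of its group (4 levels and 3 differences between members in each whole-eye arm of 6 arrays), 1 was positive, and chance flags about 1 group in 20. The level of miR-7a-1-3p on whole-eye myopia replicate 2 was -3.25 on the whole-eye log2 scale, while the other 5 myopia arrays lay between -3.08 and -2.99. Its gap to the nearest array was 0.687 of the group's range, above Dixon's limit for 6 samples. On the scale of all 24 arrays its level was -3.74, between the others' -3.84 and -3.61. That array's miR-7a-5p level, -1.07, was also the lowest of its group.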

How the results depend on the processing

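Values are log2 differences. All 12 tissue differences of the members kept their call and direction, though not their size, with the files' total signal per miRNA, the series table, scaling over all miRNAs, no filter, the slide block, only the arrays compared, and each array left out. For miR-7b-5p and miR-375-3p against sclera this is not read as support, since neither was detected there. Both entered the test only through retina and whole eye. In the main fit 70.9% to 89.2% of all tested passed in these comparisons. With normexp these lost the call or turned: retina minus sclera was 0.65 for miR-7b-5p, 0.078 for miR-7a-1-3p and 0.50 for miR-375-3p, retina minus whole eye 0.60 for miR-7a-1-3p and 0.48 for miR-375-3p, and whole eye minus sclera -0.27, -0.52 and 0.026 for miR-7b-5p, miR-7a-1-3p and miR-375-3p. Normexp adds an offset that compresses dim signals. With quantile normalisation retina minus whole eye was 0.20 for miR-375-3p; the cause was not tested. The replicate block changed no call (miR-7a-5p 1.48 and miR-375-3p 0.76 in retina minus whole eye with the block).

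No arm difference passed under any setting, so turned signs are of values near 0. In whole eye, scaling over all miRNAs gave -0.16, -0.076, -0.13 and -0.18 for miR-7a-5p, miR-7b-5p, miR-7a-1-3p and miR-375-3p, and quantile normalisation -0.10, -0.11, -0.17 and -0.21. The fit of all 24 arrays gave -0.038, -0.00324 and -0.058 for miR-7a-5p, miR-7a-1-3p and miR-375-3p in whole eye, 0.015 for miR-7b-5p in retina, and -0.10 and -0.016 for miR-7a-5p and miR-7a-1-3p in sclera. In sclera miR-7a-5p gave -0.10 with normexp, -0.028 with quantile normalisation and -0.062 in the series table, and miR-7a-1-3p -0.10 with normexp and -0.32 with total signals. By the phenotype field the signs turn by construction: in retina 0.073, 0.039, 0.056 and 0.076 for miR-7a-5p, miR-7b-5p, miR-7a-1-3p and miR-375-3p, in sclera -0.069 and -0.15 for miR-7a-5p and miR-7a-1-3p, and -0.078 and -0.015 for these in retina arm minus sclera arm, 0.13 and 0.019 in sclera arm minus whole-eye arm.

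For differences between arms of 2 tissues, scaling over all miRNAs gave -0.47 and -0.534 (retina minus sclera arm) and 0.16 and 0.21 (sclera minus whole-eye arm) for miR-7a-5p and miR-7a-1-3p, and -0.31, -0.32 and -0.29 (retina minus whole-eye arm) for these and miR-375-3p. Quantile normalisation gave -0.072 and -1.17, 0.036 and 0.89, and -0.036, -0.28 and -0.12 for the same. Normexp gave -0.15 and -0.11 for miR-7a-1-3p and miR-375-3p in retina minus whole-eye arm, and total signals -0.52 and 0.55 for miR-7a-5p in retina minus sclera and sclera minus whole-eye arm. Sclera interactions of miR-7b-5p and miR-375-3p were part of the fit but are not read, as neither was detected there.

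For differences between members, normexp turned the strand difference to 0.000899 (whole-eye arms) and 0.17 (retina arms), and miR-7b-5p minus miR-7a-5p to -0.089 (retina arms) and -0.30 (retina minus whole eye). The latter was -0.031 in the series table, and the strand difference of the sclera arms 0.99 with total signals. The call set by negative controls found miR-7a-1-3p on 2 sclera titled myopia arrays, against 1.

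Leaving out 1 array at a time, arm differences ran from -0.022 to 0.075 (miR-375-3p, whole eye), -0.17 to 0.028 (miR-7b-5p, retina), -0.39 to 0.32 (miR-7a-5p, sclera) and -0.078 to 0.25 (miR-7a-1-3p, sclera). Retina minus sclera arm ran from -0.14 to 0.42 and -0.087 to 0.13, sclera minus whole-eye arm from -0.40 to 0.16 and -0.13 to 0.093, and retina minus whole-eye arm from -0.018 to 0.061 and -0.026 to 0.028 for miR-7a-5p and miR-7a-1-3p, the last from -0.071 to 0.017 for miR-7b-5p. The strand difference ran from -0.063 to 0.021 in retina arms and -0.31 to 0.12 in sclera arms, and miR-375-3p minus miR-7a-5p from -0.075 to 0.024 in whole-eye arms and -0.073 to 0.070 in retina arms.

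The background counts moved too. In whole-eye arms 35 passed, against 94 with quantile normalisation (34% of them higher, against 100%) and 22 with normexp. In retina arms 0 passed, against 51 in the fit of all 24 arrays and 55 without titled control replicate 1, and in sclera arms 0 and 2. Retina minus whole eye had 375 passing and 163 with normexp. Over the settings, retina arm minus whole-eye arm had 0 to 81 beside 5 (81 by the phenotype field), sclera arm minus whole-eye arm 0 to 20 beside 9 (20 with quantile normalisation), and retina arm minus sclera arm 0 to 7 beside 7, or 82 without retina titled control replicate 1. The share of calls that were higher was 65.8% in retina minus sclera, against 51.1% with scaling over all miRNAs, 55.7% with quantile normalisation, 52.6% in the series table and 21.7% with normexp. In retina minus whole eye it was 73.9%, against 56.9% and 61.9% in the first 2 of these, and in whole eye minus sclera 56.6%, against 45.5% with scaling over all miRNAs, 39.7% in the series table and 13.4% with normexp. Dim sclera signals limit what can be said of miR-7b-5p, miR-7a-1-3p and miR-375-3p there.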

Other observations

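In most of the lists that mark other parts of the eye, most miRNAs were lower in retina, unlike the members. The pigment epithelium and ciliary list was the exception. In retina minus whole eye, all 9 cornea and lens epithelium miRNAs were lower in retina (median -4.57, beside 0.70 over the 426 tested, of which 23% were lower and 65% higher), from miR-203-3p at -2.66 and miR-31-5p at -2.86 to miR-200b-3p at -5.87 and miR-205-5p at -7.31. Of 9 fibroblast and mesenchymal miRNAs 6 were lower and 2 higher (median -2.24), with miR-214-5p at 3.62 the highest and miR-199b-5p at -5.17 the lowest. Of 5 skeletal muscle miRNAs 4 were lower (median -2.79) and of 6 leukocyte miRNAs 4 were lower and 1 higher (median -1.09). Of the 2 pigment epithelium and ciliary miRNAs, miR-211-5p was higher by 0.49 and miR-204-5p, at -0.23, did not pass.

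Between whole-eye arms, 1 of the 9 fibroblast and mesenchymal miRNAs tested was higher in myopia and none of the others passed, close to the 10.3% over all 341 tested. The other lists had none past the threshold in the limma fits of whole-eye, retina or sclera arms.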
